A study of Mus musculus with 15 samples.

Results

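The loops described here are the mouse T cell receptor (TCR) alpha CDR3 peptides that end in YAQGLT, the end that the joining segment TRAJ26 gives to the loop. Members were chosen by their last 6 residues alone, and the family was singled out with group differences of these data already known. The rule found 2878 peptides among 92219 distinct CDR3s in 15 libraries. The 5 Tumour libraries listed 223 of them, the 5 MP libraries 708 and the 5 Naive libraries 2396. The study sequenced alpha chains of sorted CD8+ T cells from C57BL/6 males. All carry TCRbtg, a transgenic TCR beta chain that fixes the beta side of the receptor and leaves the alpha side to vary between cells. Tumour libraries came from the prostate lobes of 27-week-old TCRbtg males that also carry TRAMP+/-, a transgene whose prostate-directed oncogene gives prostate tumours, and were gated as CD8b+ CD4neg with no gate on CD44 or CD122. MP (memory-phenotype, CD44hi CD122+) and Naive (CD44lo CD122neg) libraries came from pooled spleen and lymph nodes of TCRbtg males aged 9 weeks. The study's design text speaks of 5 mice for the sorted subsets and 5 males for the tumours, and whether an MP library and the Naive library with its number come from 1 mouse is not stated. Tumour libraries differ from the others in tissue, age, genotype and gate at once, and these cannot be told apart. The files hold alpha loops and no marker gene, so the labelled cell types could not be checked here. The invariant alpha chains of natural killer T and mucosal-associated T cells use other joining segments, TRAJ18 and TRAJ33, so no member is such a chain.

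An alpha chain is made by joining a variable (V) segment to a joining (J) segment, and during joining the segment ends are trimmed and bases are added between them. The CDR3 loop spans that joint and is the part of the chain that lies over the peptide held by an MHC molecule. Memory-phenotype CD8+ cells carry memory markers in mice that were not immunised.

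As far as general knowledge gives it, TRAJ26 contributes NNYAQGLT when it is kept whole, so a loop can be sorted by how much of that end it kept. This end was not checked against a reference sequence, but N was the residue before YAQGLT in 84.5% of the family's reads in Naive libraries. Of the 2878 members, 774 kept all 8 residues, 1189 kept 7 (NYAQGLT) and 915 kept only the last 6. The members were 6 to 25 residues long. The loops below carry the main contrasts between groups, and each is named again beside its values.
Most abundant member in all 5 MP libraries: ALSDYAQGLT
Next most abundant member in MP by mean share: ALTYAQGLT
MP member with no residue between AL and the end: ALYAQGLT
Most abundant member in all 5 Naive libraries: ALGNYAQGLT
Most abundant full-end member in Naive by mean share: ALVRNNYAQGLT
Full-end member lower in MP and listed in every tumour: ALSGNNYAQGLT
Most abundant member of Tumour 1: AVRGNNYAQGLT
Most abundant member of Tumour 2 and Tumour 3: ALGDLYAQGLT
Its relative with 1 residue changed: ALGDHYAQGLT
Most abundant member of Tumour 4: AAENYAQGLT
Most abundant member of Tumour 5: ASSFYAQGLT

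The values are read counts per peptide, and every library listed a peptide from 2 reads upward. Tumour libraries held 627205 to 943699 reads, MP libraries 574484 to 881988 and Naive libraries 547665 to 702663. The family was measured on 26 to 81 distinct loops per Tumour library, 106 to 375 per MP library and 532 to 1011 per Naive library. MP 1 and MP 5, with 301 and 375 loops, stood above the other MP libraries, which listed 106 to 149. A floor of 3 reads per library corresponds to 0.000390% of reads in Tumour, 0.000438% in MP and 0.000502% in Naive libraries on average. How many cells were sorted is not stated. Reads from PCR are not independent molecules where no molecular identifier is stated, so intervals and floors speak of counting error alone. A smaller share can come from fewer cells or from less RNA per cell, and these cannot be told apart. Libraries of a group were treated as separate animals, and no pair within a group matched within counting noise. Since PCR reads are not independent, libraries of 1 animal could exceed that noise too, so this cannot show separate animals.

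The family took a larger share of reads in MP than in Naive libraries and a very uneven share in tumours. Tumour libraries 1 to 5 gave 15.8%, 0.851%, 3.28%, 1.02% and 0.889% of their reads to the family. MP libraries gave 5.05%, 6.62%, 5.35%, 4.57% and 4.86%, and Naive libraries 3.69%, 3.68%, 3.58%, 3.31% and 3.85%. The means were 4.37 ± 6.49% in Tumour, 5.29 ± 0.797% in MP and 3.62 ± 0.198% in Naive libraries (SD, n = 5 each). Every MP library lay above every Naive library, by 1.67 percentage points on average. That pattern is common, since it held for 39.3% of the 56 ends of 6 residues that reach 0.1% of reads in either subset, so no particular standing of this family follows from it. Tumour shares overlapped both other groups, and without Tumour 1 the tumour mean was 1.51%.

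Once the most abundant loop of each library was left out, the shares were 0.976 ± 0.418% in Tumour, 4.41 ± 0.75% in MP and 3.08 ± 0.178% in Naive libraries (SD, n = 5 each). On that measure no Tumour library reached the lowest MP or Naive library, and how many other ends show this was not counted. With all reads of an end counted, 28.6% of 56 ends of 6 residues were lower in every Tumour than in every MP library, and 28.9% of 45 ends lower in every Tumour than in every Naive library. Counted once each, members made up 3.62 ± 0.818% of the distinct CDR3s in Tumour, 3.64 ± 1.11% in MP and 3.47 ± 0.135% in Naive libraries, and the groups overlapped.

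**Figure D1:**
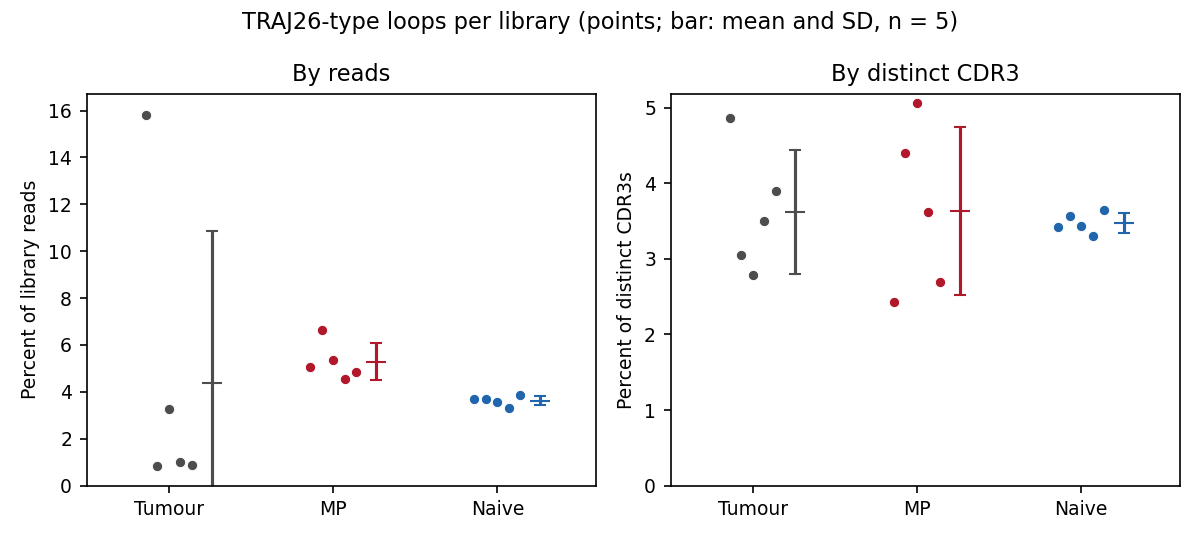
Percent of library reads (left) and percent of distinct CDR3s (right) in loops ending YAQGLT, for the 5 Tumour, 5 MP and 5 Naive libraries. Points are libraries and bars give mean and SD, with the Tumour bar on the left cut off at 0. By reads the MP points (4.57 to 6.62%) lie above the Naive points (3.31 to 3.85%) and Tumour 1 stands alone at 15.8%, whereas by distinct CDR3 the groups overlap.

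By share of reads, loops with a short kept end were higher and loops with the full end lower in MP than in Naive libraries, whereas the family as a whole had a ratio of 1.46 as MP over Naive. Loops that kept only the last 6 residues took 0.165%, 0.485%, 3.17%, 0.317% and 0.386% of reads in Tumour libraries 1 to 5, against 3.22%, 3.67%, 2.29%, 2.73% and 3.13% in MP libraries and 0.617%, 0.474%, 0.575%, 0.527% and 0.622% in Naive libraries. The mean was 5.34 times as high in MP as in Naive libraries, with every MP library above every Naive library, and Tumour 3 alone among the tumours reached the MP range. Loops that kept 7 residues took 0.398 ± 0.344% in Tumour, 1.84 ± 0.443% in MP and 1.82 ± 0.0891% in Naive libraries (SD, n = 5 each), and MP and Naive libraries overlapped.

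Loops with the full end took the other direction between the sorted subsets. They took 14.8%, 0.142%, 0.106%, 0.0488% and 0.254% of reads in Tumour libraries, 0.276%, 0.894%, 0.533%, 0.225% and 0.259% in MP libraries and 1.24%, 1.34%, 1.22%, 1.11% and 1.31% in Naive libraries. Every MP library lay below every Naive library, with a mean ratio of 0.352. Of the 56 ends of 6 residues, 32.1% were lower and 39.3% higher in every MP than in every Naive library. Those shares are for whole ends. Kept-end classes of other segments were not counted, so the classes described here have no like share beside them.

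Within the family's own reads, the full end made up 29.4 ± 37.3% in Tumour, 7.84 ± 3.77% in MP and 34.3 ± 1.28% in Naive libraries. The shortest kept end made up 45.8 ± 35.0% in Tumour, 57.2 ± 8.81% in MP and 15.5 ± 1.52% in Naive libraries (SD, n = 5 each). When each distinct loop was counted once, the full end still stood at 15.8 ± 8.11% in Tumour, 19.0 ± 3.06% in MP and 30.5 ± 1.22% in Naive libraries.

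**Figure D2:**
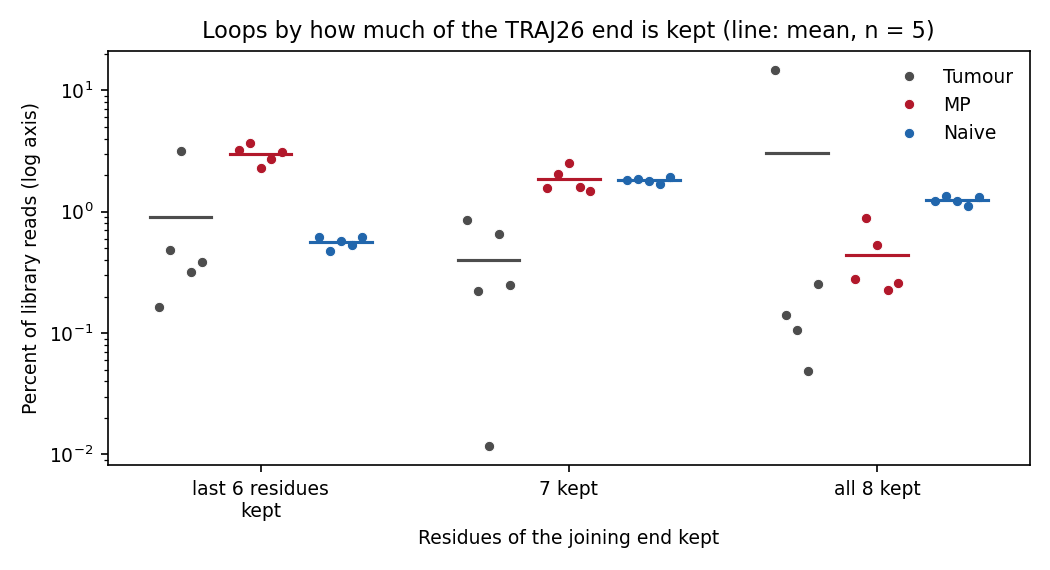
Percent of library reads (log axis) in loops that kept the last 6, 7 or all 8 residues of the TRAJ26 end, with points for libraries and lines for group means (n = 5 each). MP points lie above Naive points where 6 residues are kept, overlap them at 7 and lie below them at 8, and Tumour 1 stands at 14.8% among loops with the full end.

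The peptides just outside the rule were looked at once. Another 675 distinct CDR3s with 58661 reads in all ended in AQGLT with a residue other than Y before it, most often DAQGLT with 88 distinct peptides and 13165 reads. They took 0.211 ± 0.147% of reads in Tumour, 1.28 ± 0.341% in MP and 0.172 ± 0.0124% in Naive libraries (SD, n = 5 each). The MP mean was 7.43 times the Naive mean, against 5.34 times for the members that kept only YAQGLT.

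Members of MP libraries were also shorter. The read-weighted mean length was 11.95, 10.78, 11.14, 10.70 and 10.34 residues in Tumour libraries, 9.44, 9.83, 10.08, 9.79 and 9.47 in MP libraries and 10.89, 10.90, 10.85, 10.89 and 10.93 in Naive libraries. Every MP library lay below every Tumour and every Naive library. All other CDR3s averaged 11.4 ± 0.148 residues in Tumour, 10.96 ± 0.0557 in MP and 11.25 ± 0.0366 in Naive libraries, so they were shorter in MP as well. Among 53 ends of 6 residues with enough reads, 43.4% were shorter in every MP than in every Naive library, and 30.6% of 36 ends were longer in every Tumour than in every MP library.

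Both portions of the loop were shorter in MP than in Naive libraries. Kept joining residues averaged 6.84 ± 0.679 in Tumour, 6.51 ± 0.115 in MP and 7.19 ± 0.0277 in Naive libraries. The residues before them averaged 4.15 ± 0.578 in Tumour, 3.21 ± 0.169 in MP and 3.70 ± 0.0359 in Naive libraries. Loops of 9 residues or fewer held 8.23 ± 8.21% of the family's reads in Tumour, 42.8 ± 13.7% in MP and 3.91 ± 0.615% in Naive libraries (SD, n = 5 each). The lowest MP library, at 23.1%, stood above the highest Tumour library, at 21.6%. Loops of 12 residues or more held 36.9 ± 34.5% in Tumour, 7.58 ± 5.52% in MP and 31.4 ± 0.814% in Naive libraries.

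**Figure D3:**
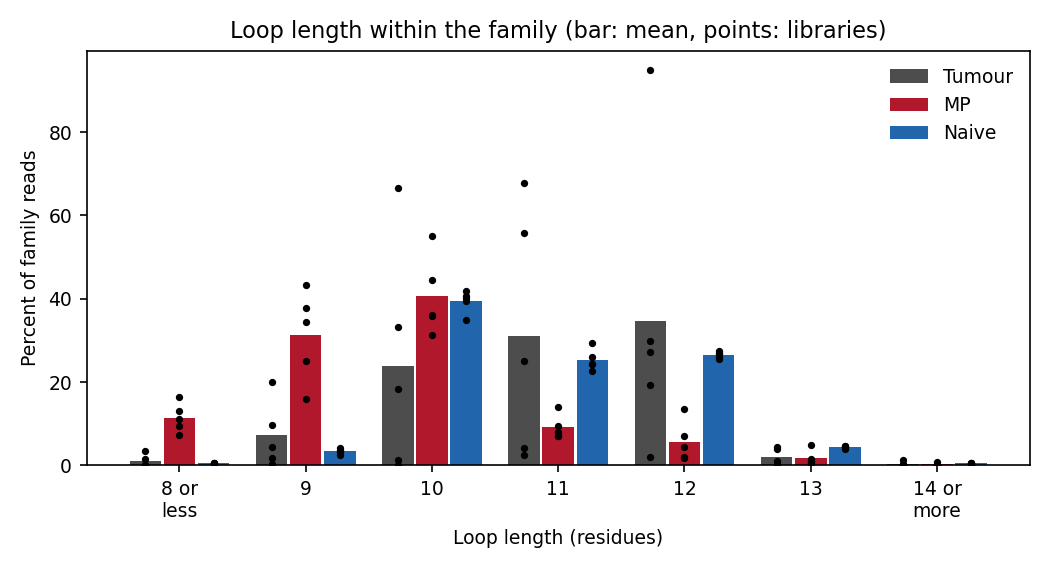
Percent of the family's reads by loop length in residues, with bars for group means (n = 5 libraries each) and points for libraries. MP bars are tall at 8 or less, 9 and 10 residues, Naive bars at 10 to 12, and the tallest Tumour point, at 12 residues, is Tumour 1.

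The residue directly before YAQGLT varied between groups. N there is what defines loops that kept 7 or 8 residues, so its share only restates the kept end. N held 54.2 ± 35.0% of the family's reads in Tumour, 42.8 ± 8.81% in MP and 84.5 ± 1.52% in Naive libraries. D, an acidic residue, held 7.04 ± 9.01% in Tumour, 21.6 ± 3.69% in MP and 4.27 ± 0.357% in Naive libraries. T held 13.5 ± 4.87% in MP and 0.253% on average in Naive libraries. Single loops carried much of both MP shares. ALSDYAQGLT, with D before the end, held 16.8 ± 2.81% of the family's reads in MP libraries. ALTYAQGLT, with T there, took 0.705% of all reads in MP libraries, where the family took 5.29%. The mean net charge of members (K and R minus D and E) was 0.917, -0.387, -0.709, -0.874 and -0.280 in Tumour libraries 1 to 5. It was -0.241 ± 0.0899 in MP and -0.105 ± 0.017 in Naive libraries, whereas all other CDR3s averaged 0.662 in MP and 0.560 in Naive libraries. The family was thus more acidic than the rest in both subsets, and Tumour 1 alone among the tumours had a positive mean.

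The first residues of a loop come from the V segment. Loops starting AL held 40.6 ± 27.2% of the family's reads in Tumour, 65.7 ± 2.57% in MP and 53.0 ± 2.85% in Naive libraries (SD, n = 5 each). Among all other CDR3s the same start held 10.6 ± 0.459% in Tumour, 38.4 ± 2.11% in MP and 29.3 ± 1.65% in Naive libraries. Loops starting AA held 12.6 ± 13.2% of the family's reads in Tumour, 1.74 ± 1.02% in MP and 7.73 ± 0.651% in Naive libraries. Among all other CDR3s that start held 46.8% in Tumour, 25.3% in MP and 30.4% in Naive libraries on average. V segments were not assigned, since the files list the loop only.

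Single loops were tested in MP against Naive libraries with edgeR's quasi-likelihood test over all 5954 CDR3s that reached 10 reads in 3 or more of the 10 libraries, with Benjamini-Hochberg adjustment over all of them. Of 232 members tested, 26 were higher in MP, 11.2% against 12.5% of all CDR3s tested. Another 121 were lower, 52.2% against 48.3% of all, so both shares of the family were near those of the whole table. The median log2 fold change was -4.44 for the family and -3.39 for all CDR3s tested. Members that pass the filter through 1 subset alone had to differ: 98 of the 121 lower loops were listed in no MP library, and 3 of the 26 higher loops in no Naive library. The 26 higher loops took 67.1 ± 9.87% of the family's reads in MP libraries, and the 121 lower loops took 48.9% in Naive libraries.

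The calls divided by kept end and by length. Among loops that kept 6 residues, 16 were higher and 20 lower of 60 tested. Among those that kept 7, 8 were higher and 51 lower of 95, and with the full end 2 were higher and 50 lower of 77. Of the lower ones, 14 that kept 6 residues, 44 that kept 7 and 40 with the full end were listed in no MP library. By length, 17 of 35 tested loops of 9 residues or fewer were higher in MP and 3 were lower, with a median log2 fold change of 3.10. Other CDR3s of that length gave 292 higher of 825, or 35.4%, and 26.7% lower. At 12 residues or more, edgeR called 58 of 74 loops lower and 0 higher, also 0 at an unadjusted p under 0.05 and 0 with DESeq2, and the median was -7.23. Other CDR3s of that length were higher in 9.00% of 2401 tests and lower in 54.2%.

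**Figure D4:**
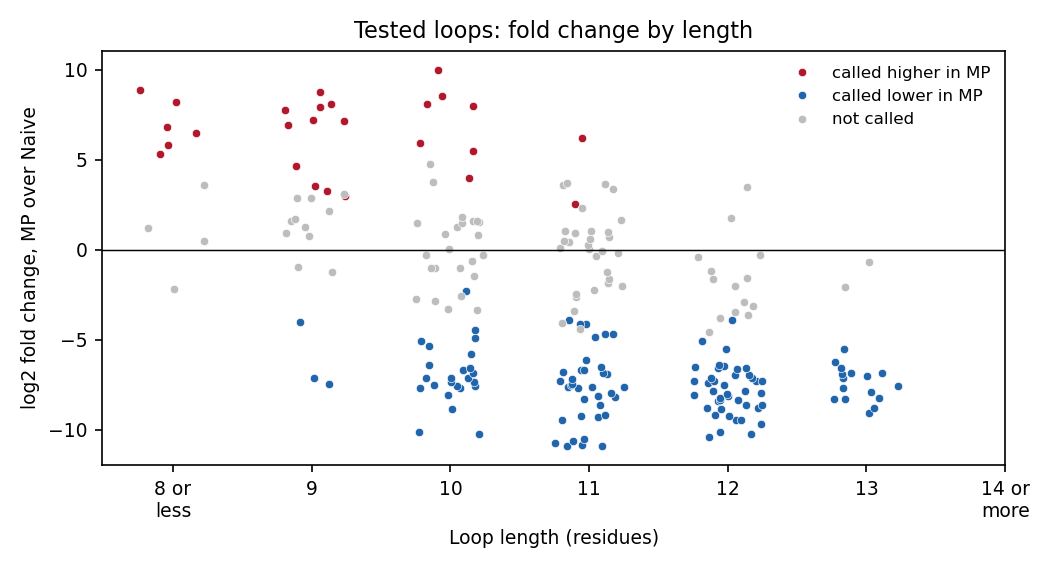
Log2 fold change of MP over Naive for the 232 tested members by loop length in residues, with colours for edgeR calls and points spread sideways for visibility. Calls higher in MP lie at 8 to 11 residues and calls lower in MP at 9 to 13 residues.

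The most abundant member of every MP library, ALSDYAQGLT, kept only YAQGLT. Among tumours only Tumour 2 listed it, at 0.0453%. It took 1.01%, 1.01%, 0.687%, 0.796% and 0.893% of reads in MP libraries, and 0.00256%, 0.00493%, 0.00296%, 0.00163% and 0.00456% in Naive libraries. The groups were far apart, with a ratio of means of 264 and a log2 fold change of 7.99 ± 0.58 (SE, edgeR, Benjamini-Hochberg adjusted p = 7.65e-05).

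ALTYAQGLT followed, listed in Tumour 2 and Tumour 3 at 0.0209% and 0.0556%. It took 0.847%, 0.953%, 0.334%, 0.507% and 0.886% in MP libraries, and 0.000696 to 0.00347% in Naive libraries. The log2 fold change was 8.72 ± 0.79 (SE, edgeR, adjusted p = 0.000304). ALYAQGLT, which has AL directly before the end, was listed in Tumour 2 alone among tumours, at 0.0132%. It took 0.632%, 0.502%, 0.331%, 0.365% and 0.455% in MP libraries and was listed in 4 Naive libraries at up to 0.00217%, which gave 8.86 ± 1.14 on the log2 fold scale (SE, edgeR, adjusted p = 0.000647). Neither loop had a tumour value within its MP range.

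Loops that kept NYAQGLT were among the abundant MP loops too. AFGNYAQGLT was listed in no tumour and averaged 0.253 ± 0.0824% in MP and 0.00395 ± 0.00178% in Naive libraries, 64.0 times as high in MP (edgeR, adjusted p = 0.000509). APNYAQGLT took 0.150%, 0.180%, 0.132%, 0.138% and 0.161% in MP libraries, and 0.0130%, 0.0102%, 0.0185%, 0.00706% and 0.0284% in Naive libraries. It was 9.86 times as high in MP, with no overlap (edgeR, adjusted p = 0.000806), but was not called with library number as a block (adjusted p = 0.0772). AHNYAQGLT was the most widely listed member, in 13 of 15 libraries, with 0.00675 ± 0.0101% in Tumour, 0.107 ± 0.0839% in MP and 0.0130 ± 0.00347% in Naive libraries. Its MP share ranged over 0.0109 to 0.181%, so that MP and Naive libraries overlapped (log2 fold change 2.99 ± 0.83, SE, edgeR, adjusted p = 0.0111). This call too was lost under that block (adjusted p = 0.259).

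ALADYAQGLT, 1 residue away from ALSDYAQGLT, was listed in no tumour and took 0.148%, 0.366% and 0.133% in MP 2, MP 3 and MP 4 and was not listed in MP 1 or MP 5. Of the Naive libraries only Naive 4 listed it, at 0.00163%. It was called higher in MP (log2 fold change 8.51 ± 2.83, SE, edgeR, adjusted p = 0.0253), but the call was lost in 4 of 7 fits without 1 library. It was lost without Naive 1, Naive 2, Naive 3 or Naive 5, where the adjusted p reached 0.0588, and without Naive 4 the log2 fold change was 12.70.

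Short loops of a common start were high in MP libraries as a series, a grouping made after their values were seen and given as description. The 17 distinct loops made of AL, a single further residue and YAQGLT took 0.0393 ± 0.0373% of reads in Tumour, 1.10 ± 0.434% in MP and 0.0166 ± 0.00316% in Naive libraries (SD, n = 5 each). Of 9 tested by edgeR, 6 were higher in MP, against 35.4% of 825 other CDR3s of 9 residues or fewer. Beside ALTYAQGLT the 6 included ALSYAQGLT with 0.108 ± 0.0712%, ALHYAQGLT with 0.103 ± 0.0616% and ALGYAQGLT with 0.0980 ± 0.0447% in MP libraries. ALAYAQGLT averaged 0.00764% in MP libraries and was the weakest of the named ones (edgeR, adjusted p = 0.0196). It was no longer called if Naive 1, Naive 3 or Naive 5 was left out. The call was also lost with no read filter, with possible reading errors folded or with library number as a block (edgeR, adjusted p up to 0.207). The log2 fold change was 8.64 without Naive 1 against 7.90 for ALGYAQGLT, 8.16 without Naive 1 against 7.17 for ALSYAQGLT, 7.58 without Naive 3 against 6.91 for ALHYAQGLT and 4.61 without Naive 4 against 3.52 for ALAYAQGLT. The 19 loops made of A, a single residue and YAQGLT took 0.0250 ± 0.0486% in Tumour, 0.586 ± 0.158% in MP and 0.0131 ± 0.0021% in Naive libraries, and 6 of 10 tested were higher in MP. The 35.4% of other short CDR3s is the comparison for this series too.

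The same start with a longer kept end did not follow. The 16 loops made of AL, a single residue and NYAQGLT took 0.0375 ± 0.0814% in Tumour, 0.331 ± 0.202% in MP and 0.763 ± 0.0716% in Naive libraries (SD, n = 5 each). Of 8 tested, 1 was higher in MP, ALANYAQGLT with 0.0910 ± 0.0813% in MP and 0.00194 ± 0.00219% in Naive libraries, and 4 were lower. The log2 fold change of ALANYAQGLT was 5.48, and 6.35 without Naive 5. Other CDR3s of 10 residues were higher in 10.2% of 1014 tests and lower in 47.9%. Where the single residue is N, a loop kept 1 residue more, as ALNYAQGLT among the 17 loops and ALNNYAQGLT among the 16. The 13 loops made of AL, a single residue and NNYAQGLT took 0.0339 ± 0.0389% in MP and 0.0330 ± 0.0140% in Naive libraries, which overlapped. The order did not hold start by start. Over 24 starts with both ends tested, the log2 fold change of the loop ending YAQGLT was above that of the loop ending NYAQGLT in 12. Over 20 starts, that of the loop ending NYAQGLT was above that of the loop ending NNYAQGLT in 10.

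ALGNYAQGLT was the most abundant member of every Naive library. Of the tumours, Tumour 5 alone listed it, at 0.102%. It took 0.0949%, 0.05%, 0.111%, 0.211% and 0.104% in MP libraries, and 0.564%, 0.631%, 0.562%, 0.455% and 0.504% in Naive libraries. It was lower in MP with no overlap (log2 fold change -2.31 ± 0.47, SE, edgeR, adjusted p = 0.00205). The call was lost with no read filter (adjusted p = 0.0710) and with library number as a block (adjusted p = 0.174).

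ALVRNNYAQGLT, with the full end, came next in Naive libraries. It was listed in MP 3 at 0.0953% and in MP 5 at 0.000292%, and took 0.254%, 0.314%, 0.251%, 0.215% and 0.237% in Naive libraries. The MP values lay below the Naive ones throughout, but the difference was not called (log2 fold change -3.81, edgeR, adjusted p = 0.154). It was called with DESeq2, with no read filter and without MP 3, where the log2 fold change was -11.47 (adjusted p = 0.000596). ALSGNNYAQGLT averaged 0.0000585% in MP, from MP 5 alone, and 0.101 ± 0.00908% in Naive libraries (log2 fold change -10.39 ± 1.30, SE, edgeR, adjusted p = 0.000647). Without MP 5, which leaves none listed in MP, its fitted log2 fold change was -12.36.

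APNNYAQGLT averaged 0.000884% in MP, all from MP 1, and 0.0845 ± 0.0160% in Naive libraries (edgeR, adjusted p = 0.0128). AFNNYAQGLT averaged 0.000965% in MP, all from MP 5, and 0.0833 ± 0.0159% in Naive libraries (edgeR, adjusted p = 0.0150). Without those libraries their fitted log2 fold changes were -12.05 and -12.09, against -6.56 and -6.44 with them. APNYAQGLT, which kept 1 residue of the end fewer than APNNYAQGLT, was higher in MP as given above. Some other abundant Naive loops were not called. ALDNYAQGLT averaged 0.0936 ± 0.112% in MP and 0.184 ± 0.0107% in Naive libraries (edgeR, adjusted p = 0.511), and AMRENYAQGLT averaged 0.0503 ± 0.0591% in MP and 0.0562 ± 0.0223% in Naive libraries (adjusted p = 0.902).

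By fitted log2 fold change, the 5 largest called decreases among members were of loops that no MP library listed. Such fitted values are no bound, and 4 other named loops, each listed in 1 MP library, lay beyond the bounds of all 5. By the ratio of means, MP was 1727-fold lower for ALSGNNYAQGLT, 107-fold for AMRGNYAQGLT, 95.6-fold for APNNYAQGLT and 86.4-fold for AFNNYAQGLT. Against the floor of 3 reads per library, MP was at least 84.3-fold lower for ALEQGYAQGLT, 82.0-fold for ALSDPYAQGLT, 78.7-fold for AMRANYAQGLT, 72.8-fold for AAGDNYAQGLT and 69.2-fold for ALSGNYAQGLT (edgeR, adjusted p = 0.000647 each). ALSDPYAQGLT kept only YAQGLT, as did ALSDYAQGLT, so a short kept end was found among loops of both directions. On the other side, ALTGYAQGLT was listed in all 5 MP libraries and no Naive library, at least 40.0-fold higher in MP (edgeR, adjusted p = 0.0018).

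Which members led differed between tumours, and so did how far they led. The top loop held 92.7% of the family's reads in Tumour 1, 11.3% in Tumour 2, 50.3% in Tumour 3, 31.9% in Tumour 4 and 27.1% in Tumour 5. In MP libraries the top loop held 12.9 to 20.1%, and in Naive libraries 13.1 to 17.1%, so 4 tumours lay above every MP and Naive library on this measure and Tumour 2 below all of them. The Shannon entropy of the family's read shares was 2.99 ± 1.71 bits in Tumour, 4.96 ± 0.147 bits in MP and 7.03 ± 0.202 bits in Naive libraries (SD, n = 5 each). It ranged over 0.703 to 5.26 bits in Tumour and 4.74 to 5.11 bits in MP libraries, which overlapped, and every tumour lay below every Naive library.

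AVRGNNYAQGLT, with the full end, took 14.7% of all reads of Tumour 1 (95% Clopper-Pearson interval 14.6 to 14.8%). No other tumour listed it, and MP 1 held it at 0.00261%, Naive 1 at 0.000427% and Naive 5 at 0.00110%. It did not pass the read filter in any comparison and was not tested. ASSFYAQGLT took 0.241% of reads in Tumour 5 (95% Clopper-Pearson interval 0.231 to 0.251%) and was listed in no other library of any group.

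Loops of the form ALGD, a single residue and YAQGLT recurred in tumours. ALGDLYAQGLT took 0.0118%, 0.0962%, 1.65%, 0.0528% and 0.000212% of reads in Tumour libraries 1 to 5. MP 1 and MP 5 held it at 0.00159% and 0.000439%, and no Naive library listed it. Tumour 3 stood far above the rest, and Tumour 5, with 2 reads, lay below MP 1 and MP 5. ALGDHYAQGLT took 0.00442%, 0.0220%, 0.525%, 0.0241% and 0.0118% in Tumour libraries. Of all MP and Naive libraries only MP 1 listed it, at 0.000454%, below every tumour.

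The 11 distinct loops of this form together, a grouping made after their values were seen, took 0.0208%, 0.118%, 2.18%, 0.0909% and 0.0216% in Tumour libraries. They took 0.00351% in MP 1, 0.124% in MP 4 and 0.0149% in MP 5, were not listed in MP 2 or MP 3, and took at most 0.00267% in a Naive library. The MP 4 value lay above 4 of the 5 tumours, so the tumour and MP libraries overlapped. It came from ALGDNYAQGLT alone, which kept 7 residues and was listed among tumours only in Tumour 1, at 0.00455%. MP 4 listed neither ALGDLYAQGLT nor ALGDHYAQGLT. The 8 loops of the form ALGE, a single residue and YAQGLT took 0.00270 to 0.0967% in Tumour libraries, at most 0.00278% in MP and at most 0.00142% in Naive libraries.

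In Tumour against MP libraries, 63 members were tested by edgeR among 1666 CDR3s. Of these, 5 were higher in Tumour, 7.94% against 7.86% of all CDR3s tested, and 37 were lower, 58.7% against 65.7%. The higher ones were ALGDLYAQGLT, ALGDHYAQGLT, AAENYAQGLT, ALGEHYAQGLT and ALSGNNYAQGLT. For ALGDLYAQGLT the log2 fold change was 10.08 ± 2.94 (SE, edgeR, adjusted p = 0.0175), which was 6.94 without Tumour 3 and 11.79 without MP 1. For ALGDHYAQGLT it was 10.38 ± 2.65 (SE, edgeR, adjusted p = 0.0128), which was 7.68 without Tumour 3 and 12.85 without MP 1.

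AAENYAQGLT took 0.140%, 0.00578% and 0.324% of reads in Tumour 1, Tumour 2 and Tumour 4 and was listed nowhere else. It was at least 215-fold higher in Tumour than in MP (edgeR, adjusted p = 0.0197). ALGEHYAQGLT, listed in Tumour 3, Tumour 4 and Tumour 5 alone, was at least 22.3-fold higher (edgeR, adjusted p = 0.0217). Both rest on 3 tumours, passed the filter through those alone and could be tested only while all 3 of them were in the fit. Their calls against MP were lost without MP 1 and MP 5 together (adjusted p = 0.0763 and 0.0723). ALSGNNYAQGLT took 0.0121%, 0.0180%, 0.000478%, 0.00868% and 0.0236% in Tumour libraries, and 0.000292% in MP 5 as its single MP listing (log2 fold change 7.90 ± 2.15, SE, edgeR, adjusted p = 0.0168). Every tumour lay above every MP library for this loop, though Tumour 3 rests on 3 reads, and without MP 5 the log2 fold change was 9.82. The call was lost with no read filter (adjusted p = 0.0507).

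Of the 37 loops lower in Tumour than in MP, 31 were listed in no tumour and so passed the filter through the MP libraries alone. AFGNYAQGLT, present in all 5 MP libraries, was at least 649-fold lower in Tumour (edgeR, adjusted p = 0.0118). ALHYAQGLT was at least 265-fold lower and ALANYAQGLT at least 233-fold lower (edgeR, adjusted p = 0.0118 each). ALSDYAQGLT averaged 0.00907% in Tumour and 0.880% in MP libraries, but its call (log2 fold change -6.42 ± 2.63, SE, edgeR, adjusted p = 0.0414) was lost in 9 of 10 fits without 1 library. Without Tumour 2, its single tumour listing, the log2 fold change was -15.35. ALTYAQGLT was not called, at 0.0153% in Tumour and 0.705% in MP libraries (edgeR, adjusted p = 0.0598), but was called with TMM, DESeq2, no read filter or without Tumour 3 (adjusted p down to 0.00532).

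In Tumour against Naive libraries, 197 members were tested by edgeR among 4671 CDR3s. Only 4 were higher in Tumour, 2.03% against 3.55% of all CDR3s tested, and 162 were lower, 82.2% against 86.5%. No Naive library listed the 4 higher loops, so they passed the filter through the tumours alone and had to differ. The 4 were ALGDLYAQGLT, at least 721-fold higher, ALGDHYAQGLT, at least 234-fold, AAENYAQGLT, at least 187-fold, and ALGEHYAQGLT, at least 19.5-fold (edgeR, adjusted p = 0.00712, 0.00299, 0.0192 and 0.0165). These bounds use the Tumour mean and do not hold for each tumour. For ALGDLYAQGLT, Tumour 3 held 1.65% and the other tumours 0.000212 to 0.0962%, with Tumour 5 below the Naive floor of 0.000502%. For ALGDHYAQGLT, Tumour 3 held 0.525% and the others 0.00442 to 0.0241%. For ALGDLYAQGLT and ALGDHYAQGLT the fitted log2 fold change was 14.40 and 12.79, against 11.24 and 10.06 without Tumour 3. Of 71 tested loops with the full end, 65 were lower and 0 higher in Tumour, also 0 at an unadjusted p under 0.05 and 0 with DESeq2. No tumour listed 62 of these 65, nor 153 of the 162 lower loops of any end, so they passed the filter through the Naive libraries alone and had to differ. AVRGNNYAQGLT was not among the loops tested.

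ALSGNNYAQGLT was listed in all 5 tumours and all 5 Naive libraries. It averaged 0.0126 ± 0.00885% in Tumour and 0.101 ± 0.00908% in Naive libraries, and was lower in every tumour than in every Naive library (log2 fold change -2.44 ± 0.80, SE, edgeR, adjusted p = 0.0148). With possible reading errors folded the call was lost (adjusted p = 0.0569). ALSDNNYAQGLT, listed in 4 tumours at up to 0.105%, averaged 0.0339 ± 0.0443% in Tumour and 0.0671 ± 0.00929% in Naive libraries and was not called (log2 fold change -0.49, edgeR, adjusted p = 0.737), but was called lower with TMM (log2 fold change -3.01) and with DESeq2 (adjusted p = 0.0379). The comparisons of Tumour with MP and with Naive share the Tumour libraries, so they are not separate evidence on the tumours.

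**Figure D5:**
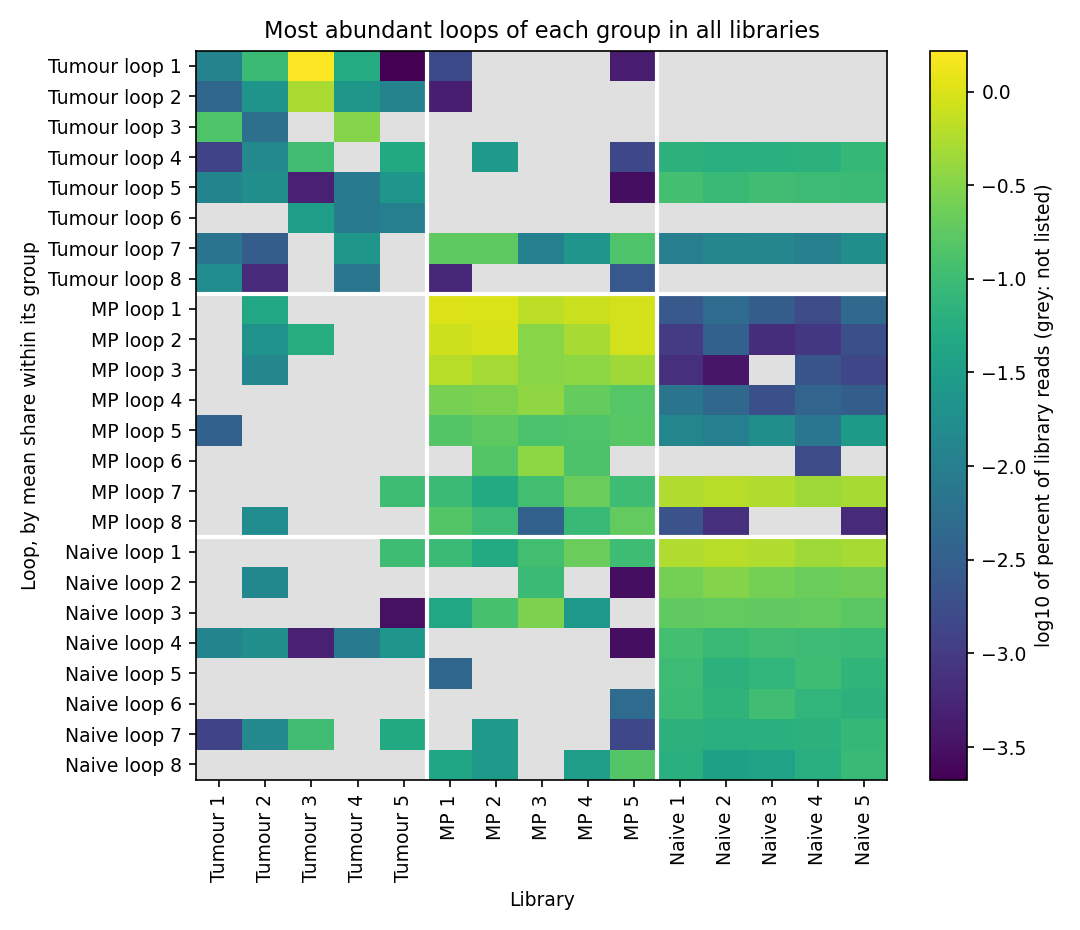
Log10 of the percent of library reads (colour; grey where a loop is not listed) of the 8 members with the highest mean share in Tumour, in MP and in Naive libraries, among loops listed in at least 3 of 5 libraries of the group, across all 15 libraries. From the top down, Tumour rows begin with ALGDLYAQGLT, MP rows with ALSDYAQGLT and Naive rows with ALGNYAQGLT, and the upper MP rows are bright in all 5 MP libraries and dark or grey in Naive libraries. A loop that ranks in more than 1 group has a row in each.

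Sharing between libraries of a group was lowest in tumours. Only 3 members were listed in all 5 tumours (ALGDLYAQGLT, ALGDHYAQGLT and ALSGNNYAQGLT), against 25 in all 5 MP and 189 in all 5 Naive libraries. As shares of the members listed in a group these were 1.35% in Tumour, 3.53% in MP and 7.89% in Naive libraries, and 1.13%, 1.85% and 5.94% of all other CDR3s in Tumour, MP and Naive libraries. The shared loops took 19.0 ± 27.1% of the family's reads in Tumour, 66.8 ± 12.6% in MP and 79.4 ± 1.31% in Naive libraries (SD, n = 5 each). In the other direction, 193 of 223 Tumour loops, 522 of 708 MP loops and 1543 of 2396 Naive loops were listed in 1 library of their group. These shares of 86.5%, 73.7% and 64.4% were near the 85.9% in Tumour, 77.5% in MP and 68.8% in Naive libraries of all other CDR3s.

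The Morisita-Horn index, which is 1 for equal read shares and 0 for no shared loop, averaged 0.0693 over the 10 pairs of tumours, 0.856 over the 10 MP pairs and 0.975 over the 10 Naive pairs. For all other CDR3s it averaged 0.252 within Tumour, 0.917 within MP and 0.973 within Naive. Pairs of an MP and a Naive library averaged 0.115 on the family. Pairs of a tumour with an MP library averaged 0.0663 (4.09e-05 to 0.283) and with a Naive library 0.0594 (0.000164 to 0.231). Pairs of tumours ranged over 5.72e-05 to 0.337, so these means do not describe each tumour. The highest values came from Tumour 2 with MP 4, Tumour 5 with Naive 2 and Tumour 2 with Tumour 3. For all other CDR3s, pairs of MP with Naive, Tumour with MP and Tumour with Naive averaged 0.0567, 0.00755 and 0.00246.

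Of the 223 loops listed in tumours, 108, or 48.4%, were listed in no MP or Naive library, against 59.5% of the 5923 other CDR3s listed in tumours. They took 4.17%, 18.9%, 24.9%, 59.0% and 40.8% of the family's reads in Tumour libraries 1 to 5. In MP libraries, the 334 of 708 loops that Naive libraries also listed were 47.2% of the MP loops and took 90.5 ± 3.97% of the family's reads, while the same 334 made up 13.9% of the Naive loops. The other CDR3s gave like values, with 42.3% of those of MP libraries, at 85.6% of their reads, also listed in Naive libraries and 14.6% of those of Naive libraries also listed in MP libraries. Folding each peptide that lay 1 substitution from one with at least 100 times its reads removed 40.1% of the listed members per library in Tumour (7.41 to 57.7%), 21.0% in MP and 6.85% in Naive libraries on average. Over all CDR3s it removed 51.8% in Tumour, 18.5% in MP and 7.07% in Naive libraries. The part that reading errors, depth or cell number have in the counts of shared and unshared loops was not tested.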

How the data were processed

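The authors deposited 1 list per library of CDR3 peptides with raw read counts. Per the labels, RNA of sorted cells was amplified by multiplex RT-PCR (iRepertoire arm-PCR), and sequenced, per the company text quoted there, on a Roche platform. For aligner, CDR3 caller and error filter: not given in the sources used here. An unlisted peptide had fewer than 2 reads unless an unstated filter removed it. Groups were taken from the labels. The members, lists and naming rule were chosen with earlier results of these data known.

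Shares are of all reads of a library (547665 to 943699), given as mean and SD without a test. Each pair of groups was fitted alone with edgeR 4.0.16 (R 4.3.3): robust quasi-likelihood test, total reads as library size, at least 10 reads in at least 3 libraries, Benjamini-Hochberg over all CDR3s tested, adjusted p under 0.05. The script was tested on simulated data. A fold against an unlisted group used 3 reads per library. Deviations of an MP and a Naive library correlated weakly, at r = 0.0125 to 0.0470 where their numbers match and -0.0507 to 0.0339 where they differ. Every matching r was positive, and the largest of all was that of MP 1 with Naive 1. Such small values cannot decide whether the libraries are paired. The main fit left them unpaired, and library number as a block was run beside it. Alternatives were TMM, DESeq2 1.42.0, 2 other read filters, folding of possible reading errors (1 substitution from a peptide with at least 100 times the reads), other ends as the rule, each library left out, and MP 1 and MP 5 left out together. Loops were named if among the 8 of highest mean share of a group (listed in at least 3 of 5 libraries), the top loop of a library, the 5 largest called folds each way of a comparison, or the 5 most widely listed. The series by start (AL, A, ALGD, ALGE) were grouped after values were seen. Segment ends came from general knowledge. The segment's name was looked up in RefSeq's GRCm38.p6 gene table. Python 3.11.15 and matplotlib 3.10.9 gave tables and plots.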

Additional observations from a re-analysis of the deposited data

Results flagged for a closer look

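Some values stood apart from the other libraries of their group by Dixon's criterion, which marks about 1 in 20 groups of 5 by chance. That rate does not hold for loops that were named for leading a library. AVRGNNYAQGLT and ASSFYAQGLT were each listed in 1 tumour, so both had to be marked. In Tumour 1 the family took 15.8% of reads, against 0.851 to 3.28% in the other tumours. The full end held 93.6% of the family's reads in Tumour 1, against 3.22 to 28.5% in the others, and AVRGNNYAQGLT took 14.7% of its reads and was unlisted in the others. In Tumour 3, loops that kept only YAQGLT took 3.17% of reads, against 0.165 to 0.485% elsewhere among tumours. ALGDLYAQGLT took 1.65% there, against 0.000212 to 0.0962%, and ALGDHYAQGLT took 0.525%, against 0.00442 to 0.0241%. In Tumour 4, AHNYAQGLT took 0.0241%, against at most 0.00670%, and in Tumour 5, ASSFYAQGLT took 0.241% and was unlisted in the others. MP 4 had a mean net charge of -0.400, against -0.217 to -0.181 in the other MP libraries. In Naive 2 the full end held 36.5% of the family's reads, against 33.4 to 34.1% in the other Naive libraries.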

How the results depend on the processing

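Of 61 called results of named loops, 48 were called under every alternative that gave a value. Counts of called members moved mainly with the read filter, which sets how many CDR3s are tested. Without a filter, MP against Naive gave 80 members higher and 582 lower, Tumour against MP 18 and 129, and Tumour against Naive 13 and 755. With at least 50 reads, 37 were lower in MP than in Naive, 24 lower in Tumour than in MP and 50 lower in Tumour than in Naive. Without MP 1 and MP 5, Tumour against MP gave 3 higher and 10 lower.

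Leaving out 1 library gave 22 to 28 higher and 93 to 126 lower for MP against Naive, 3 to 5 and 28 to 44 for Tumour against MP, and 2 to 4 and 130 to 170 for Tumour against Naive. The lowest counts higher in Tumour, 3 and 2, came without Tumour 4, where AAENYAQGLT and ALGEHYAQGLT no longer passed the filter. Leaving out 1 library moved the family's mean share over 1.51 to 5.25% in Tumour, 4.96 to 5.47% in MP and 3.57 to 3.70% in Naive, its share of distinct CDR3s over 3.31 to 3.83%, 3.28 to 3.94% and 3.43 to 3.52% in Tumour, MP and Naive, and the full-end share of its reads over 13.3 to 35.9%, 6.42 to 8.57% and 33.7 to 34.5% in Tumour, MP and Naive.

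With AQGLT as the rule the family took 6.57% of MP reads, and 4.66%, 5.48% and 3.96% of distinct CDR3s in Tumour, MP and Naive. With NYAQGLT it took 2.28% of MP and 3.06% of Naive reads. Without the top loop its share was 4.41% in MP and 3.08% in Naive libraries, where the full end held 40.4% of the rest. With each loop counted once the full end held 19.0% in MP and 30.5% in Naive. Folded reading errors gave 4.56% of distinct CDR3s in Tumour, and CDR3s of at least 10 reads gave 4.13% in Naive.

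The library number as a replicate block gave 20 members higher and 136 lower in MP than in Naive. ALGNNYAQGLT, not called, had a log2 fold change of -0.26 under the block against 1.04 without it, the calls of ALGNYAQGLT, AHNYAQGLT, APNYAQGLT and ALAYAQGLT were lost (adjusted p = 0.174, 0.259, 0.0772 and 0.124), and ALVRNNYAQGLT, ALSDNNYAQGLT and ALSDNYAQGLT were called lower. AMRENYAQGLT, -0.20 and not called, was 0.016 with TMM, 0.16 with DESeq2, 0.011 without Naive 5 and 0.13 without MP 3, over -1.20 to 0.13 without 1 library. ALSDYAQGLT in Tumour against Naive, 1.66 and not called, was -7.20 and called without Tumour 2, its single tumour listing, and ranged up to 2.05 without another library. TMM moved the median log2 fold change of all CDR3s tested by 0.20 for MP against Naive, -1.73 for Tumour against MP and -1.33 for Tumour against Naive. Where no cause is given, the cause was not tested.

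Depth limits loops near 3 reads per library, and 5 libraries per group limit every comparison with tumours, whose members are mostly listed in 1 library.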
